A study of Macaca mulatta with 449 samples.

Results

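The temporal lobe of the rhesus macaque was compared here with the frontal lobe of the same animals, gene by gene. The samples were chosen by the number of the dissected sub-region in their labels. The temporal side was the sum of the occipito-temporal, inferior temporal, superior temporal and temporal polar gyri of an animal (4 sub-regions, 32 samples). The frontal side was the sum of 10 sub-regions (80 samples), namely the middle, inferior, posterior superior and anterior superior frontal gyri, the anterior arcuate sulcus gyrus, the ventromedial prefrontal cortex, the medial orbital gyrus, the insula and the superior and inferior precentral gyri. Together these were 112 samples, 14 sub-regions from each of the 8 animals, so that 8 temporal sums stood against 8 frontal sums with the animal as a block. The study sequenced RNA, depleted of ribosomal RNA, from small blocks of brain tissue of healthy, untreated macaques, and 51 of the dissected sub-regions have columns in the count table. Of the 4 males, Rhesus 2 and Rhesus 3 were 10 years old, Rhesus 7 was 4 years and Rhesus 8 was 3.8 years. Of the 4 females, Rhesus 6 was 10 years old, Rhesus 11 was 9.8 years, Rhesus 10 was 5 years and Rhesus 4 was 3.2 years. The blocks were bulk tissue, and how many layers and how much white matter each held was not measured, so fewer cells of a type and less RNA per cell cannot be told apart in any value below.

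The temporal lobe holds the auditory cortex and its association areas in the superior temporal gyrus, the high-order visual cortex for objects and faces in the inferior temporal gyrus, and the multimodal cortex of the temporal pole. The frontal lobe holds the prefrontal association cortex and, in the precentral gyri, the premotor and primary motor cortex. The insula, which the study grouped with the frontal sub-regions, is an interoceptive and limbic area. All of these are neocortex with the same broad cell classes, and areas are known to differ in the genes of connections, layers, synaptic receptors and myelin more than in which cell classes they hold.

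Between 8867963 and 19414263 reads were counted on genes in a temporal sample and between 8118268 and 31083490 in a frontal sample, with medians of 10536187.5 and 10628607.5. The temporal sums held 41582671 to 58326163 counts and the frontal sums 88749824 to 154965715. Levels are given as CPM, the counts of a gene relative to a library size scaled by the TMM method. They are not divided by transcript length, so they compare samples for a gene and not one gene with another. The median correlation of a sample with the samples of both lobes together had a median of 0.973 over the 112 samples. It was lowest for the posterior superior frontal gyrus of Rhesus 4 (0.924) and the inferior precentral gyrus of Rhesus 3 (0.937). The medial orbital gyrus sample of Rhesus 11 held 1890 CPM of GHV, a growth hormone gene, and 646 CPM of the prolactin gene PRL, against at most 8.85 and 19.3 CPM in the other 111 samples. Without these samples the count of genes called between the lobes stayed within 1.5 times. The age and sex interaction counts did not change, and the other fits were not repeated without these samples. Lower GHV and PRL levels also differed by lobe in some animals. In Rhesus 3 PRL was 6.2 to 14.7 CPM in frontal and at most 0.0975 CPM in temporal samples. In Rhesus 11 GHV was 0 CPM in the temporal samples and the anterior superior frontal gyrus. Its remaining frontal samples, medial orbital aside, had 3.42 to 8.85 CPM. Rhesus 4, 7 and 8 held both genes in both lobes, and Rhesus 2, 6 and 10 held at most 0.197 CPM of either. Whether lobes were handled differently was not tested.

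Of 17243 genes tested, 3430 differed between the lobes at a Benjamini-Hochberg adjusted p (FDR) under 0.05 in edgeR's quasi-likelihood test, which is 19.9% of those tested. A total of 1583 genes (9.18%) were higher in the temporal lobe and 1847 (10.7%) were lower. Most differences were small. The median fold was 1.13 among the genes higher in temporal and 1.19 among those lower, and 43 and 79 genes, respectively, passed a fold of 2. The direction was the same in all 8 animals for 799 of the 1583 higher genes and for 1079 of the 1847 lower genes. In 90 of all genes tested (0.522%) did the 8 temporal values not overlap the 8 frontal values, 46 of them called higher and 44 called lower in temporal. The median log2 fold change (log2FC, temporal over frontal) of all genes tested was 0.0021.

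Among the 24 genes named for the size of their difference, the largest belonged to MET, which encodes the receptor tyrosine kinase for hepatocyte growth factor and is known to act in the growth and maturation of cortical projection neurons. Its level in the temporal sums ranged from 79.2 to 168 CPM, with a median of 137. In the frontal sums it ranged from 6.6 to 27.5 CPM, with a median of 15.3. The lowest temporal animal thus lay well above the highest frontal animal, and the fitted difference was 9.58-fold (log2FC 3.26, SE 0.14, FDR 1.54e-10). Its temporal sub-region means were 138 ± 37.2 CPM in the occipito-temporal, 164 ± 35.9 in the inferior temporal, 91.7 ± 27.1 in the superior temporal and 138 ± 41.2 in the temporal polar gyrus (SD, n = 8). The frontal sub-regions other than the insula had means between 4.53 CPM in the posterior superior frontal gyrus and 17.1 CPM in the medial orbital gyrus. The insula stood between the lobes, with 53.2 ± 19.2 CPM.

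SLC17A6 encodes VGLUT2, the vesicular glutamate transporter typical of thalamic and other subcortical neurons. It ranged from 74.3 to 129 CPM, with a median of 106, in the temporal sums. The frontal sums ranged from 26.3 to 43.8 CPM, with a median of 38.5. No frontal animal reached the lowest temporal animal, and SLC17A6 was 2.76-fold higher in temporal (log2FC 1.46, SE 0.043, FDR 4.27e-13), with a ratio that varied little among the animals (log2 ratios from 1.19 to 1.59). Its mean was highest in the occipito-temporal gyrus (137 ± 40.2 CPM) and lowest within the lobe in the temporal polar gyrus (70.4 ± 13.7 CPM), which lay below the insula (72.4 ± 14.9 CPM).

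CARTPT, the precursor of the CART neuropeptide and a gene of upper-layer excitatory neurons in primate cortex, ranged from 11.6 to 29.3 CPM, with a median of 16.3, in the temporal sums. Its frontal sums ranged from 3.24 to 7.6 CPM, with a median of 5.51. The groups did not overlap and the difference was 3.31-fold (log2FC 1.73, SE 0.094, FDR 2.08e-09). Within the temporal lobe it was 30.8 ± 9.08 CPM in the temporal polar gyrus but 6.65 ± 1.84 CPM in the superior temporal gyrus, and these 4 sub-regions differed (FDR 1.73e-09 for variation among them). Both precentral gyri, 0.315 and 0.653 CPM, held almost none, whereas the ventromedial prefrontal cortex, the insula and the medial orbital gyrus held 12.5, 10.8 and 10.6 CPM.

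**Figure D1:**
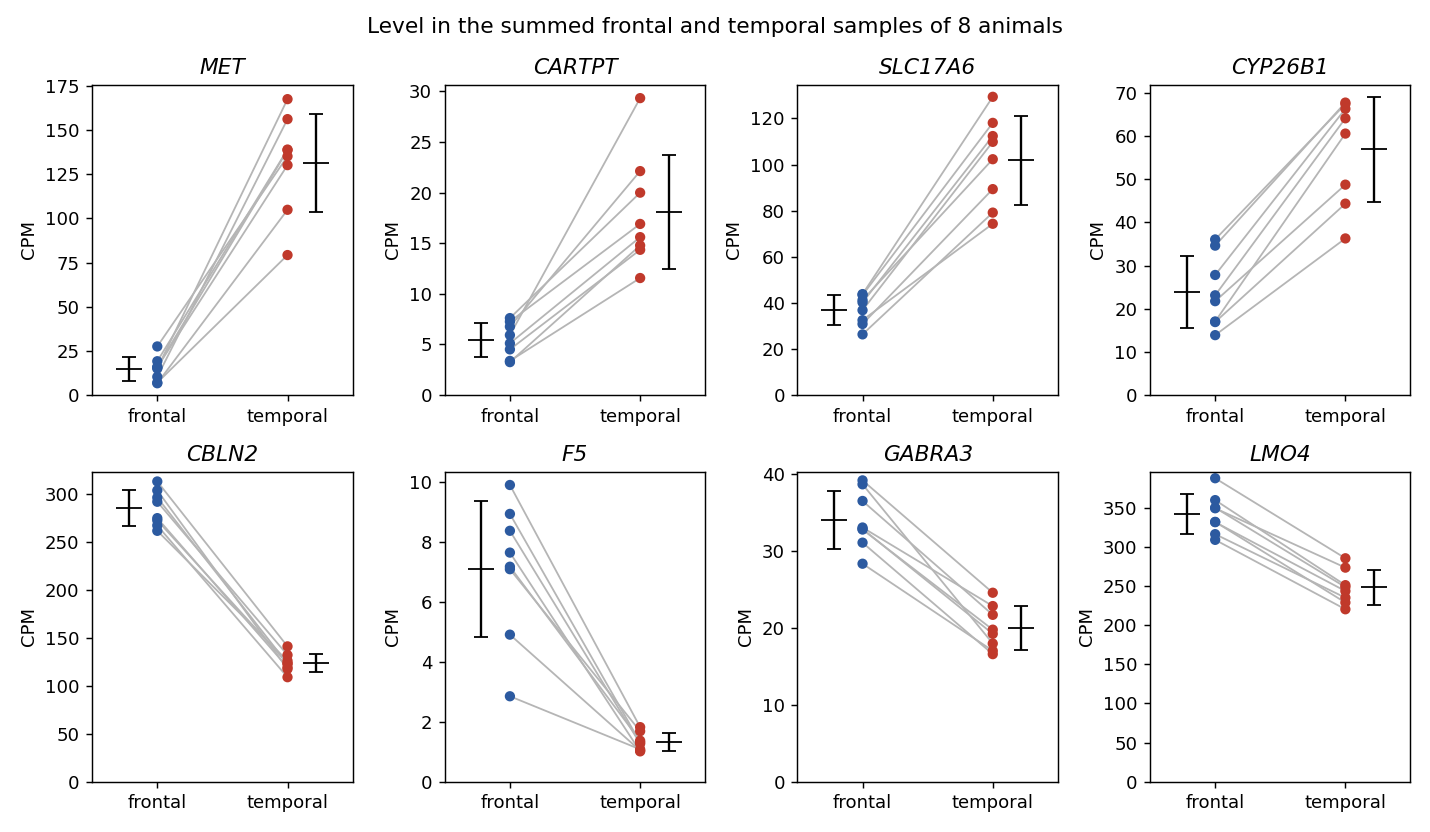
Level of 8 genes in CPM (y axis, from 0) in the summed frontal (blue) and temporal (red) samples, where each point is an animal, grey lines join the sums of 1 animal, and black marks give the mean ± SD of 8 animals. MET, CARTPT, SLC17A6 and CYP26B1 were higher and CBLN2, F5, GABRA3 and LMO4 lower in the temporal sum of every animal, and in none of the 8 genes did the groups overlap.

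The other 9 of the 12 genes with the largest upward differences were mostly of low level. DMKN, a gene known from epidermis, ranged from 1.05 to 2.04 CPM in temporal and from 0.108 to 0.56 CPM in frontal sums (log2FC 2.52, SE 0.20, FDR 1.12e-07). The order of its means fell from 2.99 CPM in the occipito-temporal to 1.95 in the inferior temporal, 0.923 in the superior temporal and 0.114 in the temporal polar gyrus, the last lying within the range of the frontal sub-regions. AFM, which encodes a vitamin E binding protein of the albumin family, was likewise lowest in the temporal polar gyrus, with 1.73 and 1.85 CPM in the occipito-temporal and inferior temporal gyri and 0.291 CPM in the temporal polar gyrus (log2FC 2.22, SE 0.15, FDR 2.23e-08). The NADPH oxidase gene NOX3 averaged 1.55 ± 0.75 CPM in the temporal and 0.325 ± 0.192 CPM in the frontal lobe (log2FC 2.25, SE 0.17, FDR 7.33e-08). ABCA12, a lipid transporter gene, averaged 3.36 ± 0.804 CPM in the temporal and 0.866 ± 0.373 CPM in the frontal lobe, with no overlap of animals (log2FC 1.98, SE 0.19, FDR 1.07e-06). LHX9 encodes a LIM homeodomain transcription factor best known from the thalamus and the developing pallium. It averaged 1.07 ± 0.475 CPM in the temporal and 0.269 ± 0.123 CPM in the frontal lobe (log2FC 1.98, SE 0.17, FDR 4.11e-07), and each temporal sub-region mean, 0.713 to 1.55 CPM, lay above each frontal one, 0.0949 to 0.428 CPM.

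NPR1, the receptor guanylate cyclase for atrial natriuretic peptide, ranged from 3.87 to 7.53 CPM in temporal and from 0.952 to 2.57 CPM in frontal sums, without overlap (log2FC 1.58, SE 0.11, FDR 3.00e-08). LPAR3, a receptor for lysophosphatidic acid, averaged 3.79 ± 1.81 CPM in the temporal and 1.37 ± 0.612 CPM in the frontal lobe (log2FC 1.46, SE 0.11, FDR 1.17e-07). The focal adhesion adaptor gene PARVG averaged 5.36 ± 2.01 CPM in the temporal and 2.03 ± 0.863 CPM in the frontal lobe (log2FC 1.41, SE 0.077, FDR 2.08e-09). In both LPAR3 and PARVG the highest frontal animal lay above the lowest temporal animal, although every animal had more in its own temporal sum. GTSF1, a gene of the piRNA pathway, was the least even of the 12. Its log2 ratio ran from 0.043 to 3.17 over the animals (log2FC 1.42, SE 0.30, FDR 0.00263), and its temporal polar mean of 0.394 CPM lay below every frontal mean.

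The 12 genes with the largest differences downward were likewise of low to moderate level, and several were highest in the precentral and posterior superior frontal gyri. F5, which encodes coagulation factor V, ranged from 2.85 to 9.89 CPM, with a median of 7.4, in the frontal sums. Its temporal sums ranged from 1.01 to 1.82 CPM, with a median of 1.29. The groups did not overlap and F5 was 5.26-fold lower in temporal (log2FC -2.40, SE 0.11, FDR 5.53e-10). Its sub-region means nevertheless crossed, since the precentral gyri had 19.3 ± 6.71 and 17.7 ± 7.49 CPM and the insula 0.971 ± 0.595 CPM, which was below the occipito-temporal gyrus (1.69 ± 0.709 CPM). CLEC10A, a C-type lectin receptor known from macrophages and dendritic cells, was 0.453 ± 0.232 CPM in the temporal and 2.39 ± 1.01 CPM in the frontal lobe (log2FC -2.40, SE 0.13, FDR 2.02e-09), without overlap. Its frontal maximum was likewise in the superior precentral gyrus (5.81 CPM) and the posterior superior frontal gyrus (5.62 CPM).

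GDF10, a growth factor of the TGF-beta superfamily, averaged 0.375 ± 0.172 CPM in the temporal and 1.5 ± 0.324 CPM in the frontal lobe, again without overlap (log2FC -1.99, SE 0.17, FDR 2.31e-07). THBS4, an astrocyte-secreted matrix protein of the thrombospondin family, averaged 0.632 ± 0.185 CPM in the temporal and 2.42 ± 0.922 CPM in the frontal lobe, without overlap (log2FC -1.90, SE 0.12, FDR 8.14e-09). In each of CLEC10A, GDF10 and THBS4 the 4 temporal means lay below the 10 frontal means. SPAG17, a gene of the ciliary central apparatus, averaged 0.35 ± 0.199 CPM in the temporal and 1.31 ± 0.415 CPM in the frontal lobe (log2FC -1.89, SE 0.19, FDR 1.94e-06) and had its highest mean in the anterior arcuate sulcus gyrus (3.23 CPM). The keratin gene KRT19 averaged 0.406 ± 0.31 CPM in the temporal and 1.45 ± 0.764 CPM in the frontal lobe (log2FC -1.83, SE 0.21, FDR 7.76e-06), and the adhesion molecule gene CEACAM1 averaged 0.682 ± 0.193 CPM in the temporal and 2.17 ± 0.693 CPM in the frontal lobe (log2FC -1.65, SE 0.14, FDR 3.40e-07).

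MLXIPL encodes ChREBP, a transcription factor that responds to glucose. It ranged from 2.19 to 11.6 CPM in temporal and from 6.61 to 21.1 CPM in frontal sums (log2FC -1.52, SE 0.11, FDR 5.04e-08). The groups overlapped, but the log2 ratio within an animal was always between -2.15 and -0.86. CLIC6, a chloride channel family gene and a marker of choroid plexus, was 4.2 ± 3.38 CPM in the temporal and 10.3 ± 6.0 CPM in the frontal lobe (log2FC -1.39, SE 0.10, FDR 5.44e-08). TTF2, a transcription termination factor gene, averaged 1.69 ± 0.436 CPM in the temporal and 4.53 ± 1.73 CPM in the frontal lobe (log2FC -1.38, SE 0.11, FDR 2.32e-07). MCHR2, a receptor for melanin-concentrating hormone, averaged 3.38 ± 1.87 CPM in the temporal and 8.13 ± 1.84 CPM in the frontal lobe (log2FC -1.34, SE 0.15, FDR 7.94e-06). SOSTDC1, a secreted antagonist of BMP and Wnt signals, averaged 3.78 ± 0.958 CPM in the temporal and 9.68 ± 3.69 CPM in the frontal lobe (log2FC -1.31, SE 0.11, FDR 1.77e-07). The temporal pole did not share the low level of MCHR2, for its mean of 8.96 ± 6.13 CPM stood against 1.11 to 2.07 CPM in the other temporal gyri and did not pass the test against the frontal sums (log2FC -0.019, FDR 0.962).

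**Figure D2:**
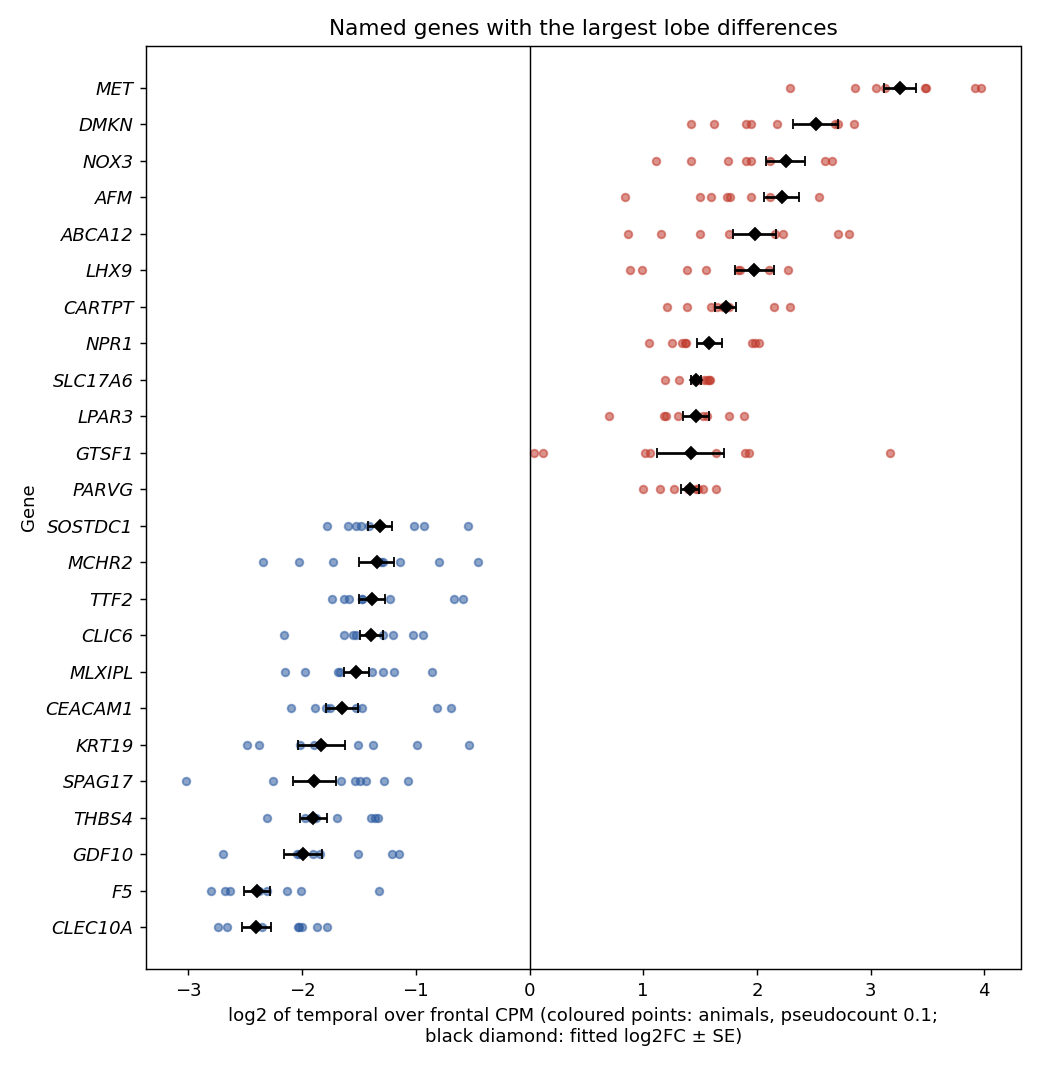
The 24 named genes (y axis) against the log2 of temporal over frontal CPM (x axis), with 1 coloured point per animal (red for genes higher and blue for genes lower in temporal) and a black diamond for the fitted log2FC ± SE. MET had the largest log2FC (3.26) and CLEC10A the most negative (-2.40), and GTSF1 had the widest spread of animals, from 0.043 to 3.17.

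A stricter view asks for genes in which the lobes separate at the level of single gyri. In 74 genes (0.429% of those tested) the means of the 4 temporal sub-regions all lay above those of the 10 frontal sub-regions, and 59 of them were called higher. In 143 genes (0.829%) they all lay below, and 134 of these were called lower. Upward, the 6 with the largest differences were MET, LHX9 and PARVG, described above, and CYP19A1, RPE65 and DCBLD1. CYP19A1 encodes aromatase, which makes estradiol from testosterone. It averaged 8.06 ± 2.54 CPM in the temporal and 3.72 ± 1.01 CPM in the frontal lobe (log2FC 1.10, SE 0.077, FDR 3.35e-08), and its sub-region means were 4.99 to 10.6 CPM in the temporal and 2.71 to 4.76 CPM in the frontal lobe. RPE65, the retinoid isomerohydrolase of the visual cycle, averaged 5.61 ± 1.74 CPM in the temporal and 3.48 ± 1.22 CPM in the frontal lobe (log2FC 0.70, SE 0.073, FDR 2.85e-06). DCBLD1, a transmembrane protein gene, averaged 21.6 ± 2.43 CPM in the temporal and 14.7 ± 3.02 CPM in the frontal lobe (log2FC 0.57, SE 0.070, FDR 1.82e-05). The gap between the lobes was narrow in these genes, and the highest frontal means were 4.86 CPM for RPE65 and 17.3 CPM for DCBLD1 against lowest temporal means of 5.06 and 17.7 CPM.

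Downward, the 6 were CLEC10A, GDF10, THBS4, CEACAM1 and SOSTDC1, described above, and ITGA4, the integrin alpha 4 subunit. ITGA4 averaged 4.2 ± 0.723 CPM in the temporal and 9.03 ± 3.42 CPM in the frontal lobe (log2FC -1.06, SE 0.084, FDR 1.47e-07), and its temporal means of 3.28 to 4.85 CPM lay below the lowest frontal mean, 5.71 CPM in the anterior arcuate sulcus gyrus. The level of ITGA4 differed among the frontal sub-regions (FDR 6.25e-07) and peaked in the posterior superior frontal gyrus (15.5 ± 7.93 CPM).

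**Figure D3:**
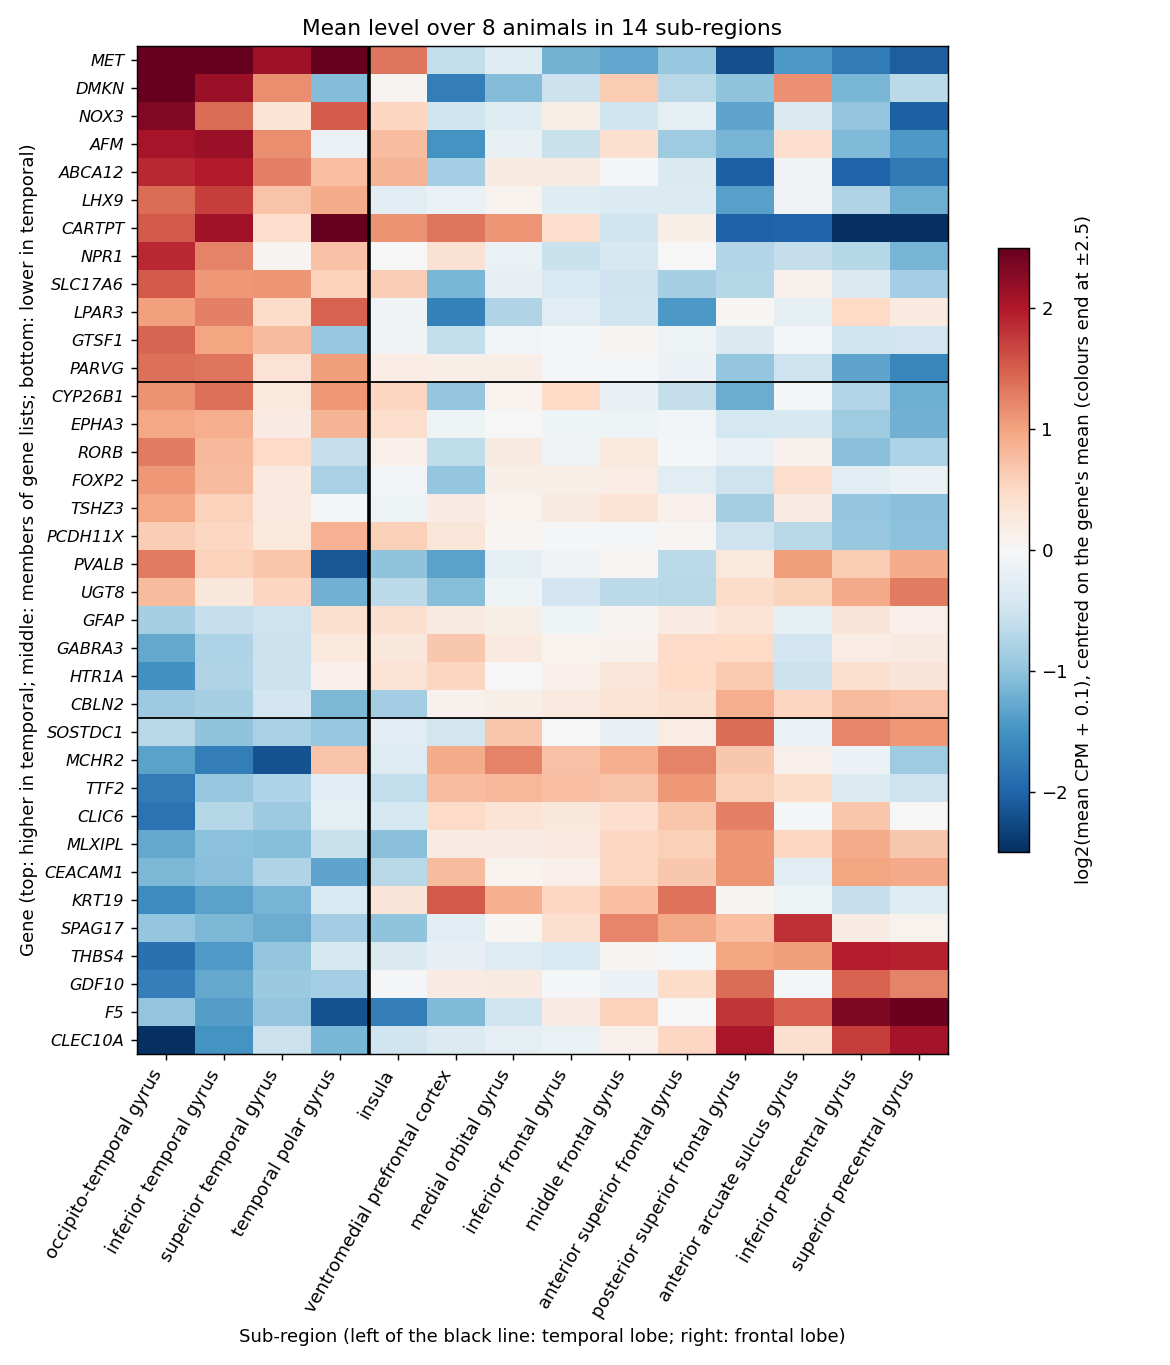
Mean level over 8 animals in the 4 temporal (left of the black line) and 10 frontal sub-regions (columns) for the 24 named genes and 12 members of gene lists (rows), as log2(mean CPM + 0.1) centered on each gene's mean, red for above and blue for below. MET was red in all 4 temporal columns and in the insula, while PVALB and UGT8 were blue in the temporal polar gyrus and red in the precentral gyri and the occipito-temporal gyrus.

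The frontal sub-regions are not alike, so the temporal sums were also set against 3 parts of the frontal lobe, each with its own fit. These fits share the temporal samples and are given side by side. Against the 7 prefrontal sub-regions 2852 genes were called (16.8%), 1317 higher and 1535 lower. Against the 2 precentral gyri 5558 genes were called (34.7%), 2760 higher and 2798 lower. Against the insula 2896 genes were called (17.9%), 1404 higher and 1492 lower. The log2FC of MET was 3.76 against the prefrontal part, 4.59 against the precentral part and 1.38 against the insula. That of CARTPT was 1.61, 5.14 and 0.76 in the same order, and that of SLC17A6 was 1.61, 1.75 and 0.52. All 9 of these values passed the FDR threshold. F5 was lower than in the prefrontal (log2FC -1.96, FDR 8.32e-08) and precentral parts (log2FC -3.76, FDR 1.24e-11), but its difference from the insula was 0.56 (FDR 0.121). MLXIPL, CEACAM1, TTF2, MCHR2 and SPAG17 also passed against the prefrontal part and not against the insula, where their log2FC were -0.068 (FDR 0.811), -0.37 (FDR 0.467), -0.36 (FDR 0.177), -0.43 (FDR 0.134) and -0.088 (FDR 0.891). RPE65, described above among the higher genes, did not pass against the insula either (log2FC 0.34, FDR 0.0524). MCHR2 did not pass against the precentral part either (log2FC -0.26, FDR 0.364).

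Each temporal gyrus was also fitted alone against the frontal sums, and these 4 fits share the frontal samples. The occipito-temporal gyrus gave 6083 calls (36.5%), 2964 higher and 3119 lower. The temporal polar gyrus gave 4511 (27%), 2187 higher and 2324 lower. Fewer genes passed for the superior temporal gyrus, with 2109 (12.7%; 1089 higher and 1020 lower), and for the inferior temporal gyrus, with 893 (5.36%; 339 higher and 554 lower). A count of calls also depends on the spread between the samples of a gyrus, and the number of genes past a fold of 2 was 523, 397, 98 and 149 in the same order. MET passed in all 4 gyri, with log2FC of 3.30, 3.30, 2.72 and 3.58. The other genes described above for the size of their difference all passed in the occipito-temporal and inferior temporal gyri. CARTPT, NPR1 and NOX3 did not pass in the superior temporal gyrus (log2FC 0.31, FDR 0.124, log2FC 0.39, FDR 0.147 and log2FC 0.81, FDR 0.151). In the temporal polar gyrus AFM, CYP19A1 and GTSF1 (log2FC 0.15, FDR 0.832, log2FC 0.35, FDR 0.155 and log2FC -0.92, FDR 0.0545) and, besides MCHR2, the lower gene KRT19 (log2FC -1.06, FDR 0.0714) did not pass, and DMKN was below the filter on low counts.

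**Figure D4:**
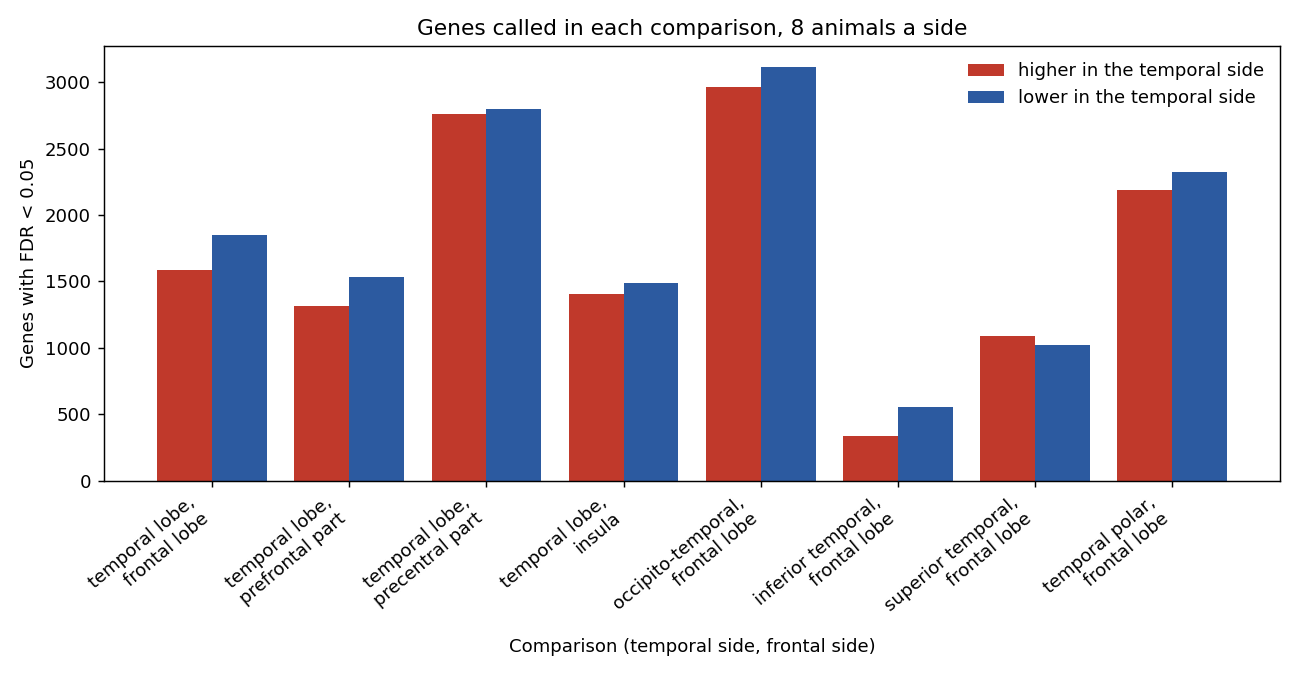
Number of genes with FDR < 0.05 (y axis) in 8 comparisons (x axis, temporal side then frontal side), red for higher and blue for lower on the temporal side. The precentral part (2760 and 2798) and the occipito-temporal gyrus (2964 and 3119) gave the most calls, and the inferior temporal gyrus (339 and 554) gave the fewest.

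The sub-regions of each lobe were also tested for differences among themselves, in fits of single samples whose tests, sample numbers and genes tested differ from those of the lobe sums, so the counts are not compared with them. Among the 4 temporal gyri 5875 of 14898 genes tested (39.4%) varied, and among the 10 frontal sub-regions 6523 of 15437 (42.3%) varied, both in edgeR F tests with the animal as a block. Of the 1583 genes higher in temporal, 997 of the 1533 tested varied among temporal gyri and 891 of the 1526 tested varied among frontal sub-regions. Of the 1847 lower genes, 1014 of 1693 and 1207 of 1786 did. The temporal sum pools contrasting gyri, each weighted by the depth of its sample, and weighting the sub-regions alike in limma gave 3135 calls. The genes higher in temporal were highest in the occipito-temporal gyrus in 70.2% and in the temporal polar gyrus in 17.2% of cases, and they were lowest in the temporal polar gyrus in 69.9%. The genes lower in temporal were mirrored, with 1181 of 1847 highest within the lobe in the temporal polar gyrus and 1154 lowest in the occipito-temporal gyrus. These shares were not computed for all genes tested, and the calls were made on sums that hold the same gyri. Leaving the temporal polar gyrus out of the sums raised the count of calls from 3430 to 5649, and leaving out the occipito-temporal gyrus lowered it to 1978.

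Some genes of myelin and of fast-firing neurons had a wide range within the lobe. UGT8, an enzyme that makes the galactolipids of myelin, was 59.7 ± 15.1 CPM in the occipito-temporal and 15 ± 2.64 CPM in the temporal polar gyrus, and in the frontal lobe it ran from 16.6 CPM in the ventromedial prefrontal cortex to 85.2 CPM in the superior precentral gyrus. SCN1A, a sodium channel alpha subunit, was 519 ± 145 and 160.2 ± 34.5 CPM in those temporal gyri and 187 to 433 CPM over the frontal sub-regions. The calcium-binding protein PVALB, which marks fast-spiking interneurons, was 62.6 ± 11.2 and 5.65 ± 2.45 CPM, and in the frontal lobe 9.86 to 52.1 CPM. The range within each lobe was thus several times the difference between the lobe sums. UGT8 averaged 41.5 ± 5.44 CPM in the temporal and 37.1 ± 4.87 CPM in the frontal lobe (log2FC 0.17, SE 0.053, FDR 0.0379), and SCN1A averaged 349.8 ± 73.9 CPM in the temporal and 298 ± 50.2 CPM in the frontal lobe (log2FC 0.22, SE 0.046, FDR 0.00257). Without the occipito-temporal gyrus the log2FC turned to -0.10 for UGT8 (FDR 0.458) and to -0.076 for SCN1A (FDR 0.478), and that of TBR1 also changed sign.

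Gene groups were then read member by member against the 19.9% of all genes tested that were called. The lists were chosen with earlier results of these data known, so a share above 19.9% is a description and not a test. Of the 14 cortical layer markers, 7 were higher and 1 was lower in temporal, with a median log2FC of 0.21. The next largest after CARTPT was RORB, a nuclear receptor of layer 4 neurons, at 39.9 ± 14.8 CPM in the temporal and 22.7 ± 8.08 CPM in the frontal lobe (log2FC 0.78, SE 0.11, FDR 4.28e-05). FOXP2, a transcription factor of deep-layer neurons, averaged 31 ± 7.56 CPM in the temporal and 19.9 ± 5.28 CPM in the frontal lobe (log2FC 0.64, SE 0.069, FDR 3.98e-06). Both were higher in all 8 animals, and both were lowest within the temporal lobe in the temporal polar gyrus (16.8 and 12.5 CPM). In that gyrus alone RORB (log2FC -0.46, FDR 0.0284) and FOXP2 (log2FC -0.71, FDR 0.00389) were called lower than in the frontal sums. RORB did not pass in the inferior temporal gyrus (log2FC 0.84, FDR 0.111). The layer 5 gene PCP4 (log2FC 0.40, SE 0.041, FDR 2.34e-06), ETV1 (log2FC 0.36, SE 0.046, FDR 2.47e-05), CALB1 (log2FC 0.23, SE 0.034, FDR 1.07e-04) and CUX1 (log2FC 0.18, SE 0.041, FDR 0.0042) were also higher. BCL11B, a factor of subcortically projecting neurons, was the lower one, at 2.8 ± 0.751 CPM in the temporal and 4.26 ± 1.17 CPM in the frontal lobe (log2FC -0.59, SE 0.082, FDR 5.94e-05). FEZF2, which acts in the same neurons, did not pass (log2FC -0.11, SE 0.11, FDR 0.50).

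Factors that pattern the cortex during development gave calls both ways, 4 higher and 5 lower of 14, with a median log2FC of 0.022. TSHZ3, a zinc finger factor of cortical projection neurons, ranged from 41.1 to 50.6 CPM, with a median of 45.6, in the temporal sums. In the frontal sums it ranged from 24.1 to 33.7 CPM, with a median of 31. The groups did not overlap (log2FC 0.60, SE 0.040, FDR 1.87e-08), although the temporal polar gyrus (31.4 CPM) lay below the middle frontal gyrus (41.2 CPM). The nuclear receptors NR2F1 (COUP-TFI), at 73.3 ± 6.69 CPM in the temporal and 55.9 ± 5.75 CPM in the frontal lobe (log2FC 0.39, SE 0.035, FDR 4.87e-07), and NR2F2 (COUP-TFII; log2FC 0.31, SE 0.041, FDR 3.59e-05), which are known for a posterior or temporal bias in developing cortex, were higher in all 8 animals. BHLHE22 (log2FC 0.36, SE 0.058, FDR 2.60e-04) was higher too. LMO4, a LIM-only factor, ranged from 309 to 388 CPM, with a median of 341, in the frontal sums. Its temporal sums ranged from 221 to 286 CPM, with a median of 246, without overlap (log2FC -0.46, SE 0.029, FDR 8.14e-09), and the insula, at 257 CPM, was the one frontal sub-region at a temporal level. LMO3 (log2FC -0.34, SE 0.034, FDR 1.94e-06), SP8 (log2FC -0.25, SE 0.065, FDR 0.0128), MEIS2 (log2FC -0.18, SE 0.035, FDR 0.00123) and PAX6 (log2FC -0.17, SE 0.034, FDR 0.00196) were lower.

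Retinoic acid is a morphogen made from vitamin A that is known to act in the frontal cortex of primates. The list of its makers, degraders, binding proteins, receptors and the target CBLN2 gave 2 higher and 4 lower calls of 17, with a median log2FC of -0.083. CYP26B1, which degrades retinoic acid, ranged from 36.3 to 67.8 CPM, with a median of 62.4, in the temporal sums. The frontal sums ranged from 13.9 to 36.1 CPM, with a median of 22.4. The lobes did not overlap and CYP26B1 was 2.45-fold higher in temporal (log2FC 1.29, SE 0.075, FDR 4.38e-09). Its superior temporal mean (33.6 CPM) nevertheless lay below the insula (41.1 CPM) and the inferior frontal gyrus (39.8 CPM). CBLN2, a secreted organizer of synapses, ranged from 261 to 313 CPM, with a median of 283, in the frontal sums. In the temporal sums it ranged from 109 to 141 CPM, with a median of 123. Every frontal animal had more than any temporal animal, and CBLN2 was 2.3-fold lower in temporal with the smallest FDR of the lower genes named here (log2FC -1.20, SE 0.035, FDR 4.27e-13). The insula (123 CPM) again resembled the temporal gyri, which had 102 to 161 CPM, and the other frontal sub-regions had 243 to 419.9 CPM. The retinol carrier RBP4 (log2FC -0.43, SE 0.046, FDR 3.65e-06) and the receptors RXRG (log2FC -0.41, SE 0.073, FDR 6.38e-04) and RXRA (log2FC -0.20, SE 0.055, FDR 0.0172) were lower and the receptor RARB (log2FC 0.23, SE 0.050, FDR 0.00403) was higher. The synthesizing enzymes ALDH1A1, ALDH1A2 and ALDH1A3 did not pass, with log2FC of 0.058, 0.067 and -0.23.

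Receptors for monoamines and acetylcholine split into 3 higher and 8 lower of 23, with a median log2FC of -0.016. HTR1A, an inhibitory serotonin receptor, ranged from 9.66 to 18.3 CPM, with a median of 13.5, in the frontal sums. It ranged from 4.53 to 9.19 CPM, with a median of 7.51, in the temporal sums. There was no overlap (log2FC -0.91, SE 0.053, FDR 4.38e-09), yet the temporal polar gyrus (12.3 CPM) lay within the frontal means and the anterior arcuate sulcus gyrus (7.77 CPM) within the temporal ones. The nicotinic subunits went opposite ways. CHRNA7 averaged 16.8 ± 3.17 CPM in the temporal and 11.7 ± 1.72 CPM in the frontal lobe (log2FC 0.52, SE 0.065, FDR 1.94e-05), with each temporal mean above each frontal mean. CHRNA4 averaged 6.94 ± 1.97 CPM in the temporal and 10.2 ± 3.59 CPM in the frontal lobe (log2FC -0.53, SE 0.059, FDR 5.89e-06), with each temporal mean below each frontal mean. The serotonin receptor genes HTR1D (log2FC 0.58, SE 0.15, FDR 0.0117) and HTR2C (log2FC 0.48, SE 0.16, FDR 0.0399) were higher and HTR1E (log2FC -0.42, SE 0.058, FDR 6.16e-05) was lower. The adrenergic receptors ADRA1A (log2FC -0.44, SE 0.057, FDR 2.98e-05) and ADRA2A (log2FC -0.26, SE 0.078, FDR 0.0273) were lower. The dopamine receptor DRD1 was slightly lower (log2FC -0.18, SE 0.041, FDR 0.00414) and DRD2 did not pass (log2FC 0.17, SE 0.11, FDR 0.293), and the remaining lower calls were CHRM3 and CHRM4.

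GABA-A receptor subunits gave 0 higher and 2 lower calls of 11, with a median log2FC of 0.11, and the summed level of the list was higher in temporal in 5 of 8 animals. GABRA3, the alpha 3 subunit, ranged from 16.6 to 24.6 CPM, with a median of 19.5, in the temporal sums. The frontal sums ranged from 28.3 to 39.2 CPM, with a median of 33. The lobes did not overlap (log2FC -0.77, SE 0.050, FDR 1.25e-08). The temporal polar gyrus, at 34.5 ± 6.92 CPM, was close to the frontal level, and the occipito-temporal gyrus, at 11.8 ± 2.76 CPM, was furthest from it. GABRA5 was the other lower one (log2FC -0.28, SE 0.060, FDR 0.00318). Of 22 glutamate receptor genes, 1 was higher and 6 were lower, all by small amounts, and the median log2FC was -0.042. GRM8, a presynaptic metabotropic receptor, averaged 27 ± 4.43 CPM in the temporal and 21.2 ± 3.23 CPM in the frontal lobe (log2FC 0.35, SE 0.041, FDR 1.01e-05). The lower ones were GRM2 (log2FC -0.32, SE 0.038, FDR 1.29e-05), GRIN2C (log2FC -0.29, SE 0.053, FDR 0.0010), GRIK4 (log2FC -0.23, SE 0.036, FDR 1.84e-04), GRIA1, GRIN3A and GRM3. The obligatory NMDA receptor subunit GRIN1 did not pass, at 607 ± 42 CPM in the temporal and 600.3 ± 46.3 CPM in the frontal lobe (log2FC 0.017, SE 0.032, FDR 0.754).

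Among 13 interneuron markers, PVALB and LAMP5 were higher and CCK and GAD2 lower, with a median log2FC of -0.016. LAMP5, which marks neurogliaform cells in the superficial layers, averaged 48.9 ± 8.52 CPM in the temporal and 34.5 ± 7.18 CPM in the frontal lobe (log2FC 0.51, SE 0.036, FDR 3.70e-08) and had the opposite gradient to PVALB within the temporal lobe, from 38.1 CPM in the occipito-temporal to 66.9 CPM in the temporal polar gyrus. PVALB averaged 37 ± 4.69 CPM in the temporal and 26.5 ± 6.08 CPM in the frontal lobe (log2FC 0.50, SE 0.056, FDR 5.73e-06), a call that was lost without the occipito-temporal gyrus. CCK averaged 141 ± 29.8 CPM in the temporal and 174 ± 43.6 CPM in the frontal lobe (log2FC -0.30, SE 0.035, FDR 8.00e-06). The summed level of the 13 markers ran from 1227 to 1450.0 CPM in temporal and from 1237 to 1554 CPM in frontal sums, higher in temporal in 2 of 8 animals. Of 14 neuropeptide and opioid receptor genes tested, 5 were higher and 1 lower, with a median log2FC of 0.055. Beside CARTPT these were the mu opioid receptor OPRM1 (log2FC 0.43, SE 0.092, FDR 0.0033), the dynorphin precursor PDYN (log2FC 0.29, SE 0.064, FDR 0.00429), CRH (log2FC 0.26, SE 0.059, FDR 0.00438) and TAC1 (log2FC 0.15, SE 0.046, FDR 0.0245), and CCK was the lower one. PDYN was lowest in the precentral gyri (14.3 and 14.7 CPM), and its call was lost when these were left out of the frontal sums.

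Of 7 excitatory neuron markers, SLC17A6 and TBR1 (log2FC 0.21, SE 0.061, FDR 0.0201) were higher, NEUROD6 (log2FC -0.66, SE 0.066, FDR 2.07e-06), NEUROD2 (log2FC -0.18, SE 0.051, FDR 0.0169) and SLC17A7 (log2FC -0.14, SE 0.042, FDR 0.0264) were lower, and CAMK2A and NRGN did not pass. NEUROD6, a factor of projection neurons, averaged 50.1 ± 7.12 CPM in the temporal and 79 ± 11.2 CPM in the frontal lobe and was lower in all 8 animals. It passed against the prefrontal part and the insula but not against the precentral part (log2FC -0.093, FDR 0.426). NEUROD6 also did not pass in the temporal polar gyrus (log2FC -0.24, FDR 0.168). TBR1 passed against the precentral part but not against the prefrontal part (FDR 0.113) or the insula (FDR 0.0847). In the temporal polar gyrus alone TBR1 was called lower (log2FC -0.37, FDR 0.00784). The summed level of the 7 markers was higher in temporal in 4 of 8 animals. Of 11 genes of neurofilaments and fast-firing neurons, 5 were higher and 1 was lower, with a median log2FC of 0.14. The higher ones were SPP1 (log2FC 0.27, SE 0.034, FDR 1.95e-05), SCN1A (log2FC 0.22, SE 0.046, FDR 0.00257), NEFM (log2FC 0.20, SE 0.040, FDR 0.00201), NEFL (log2FC 0.16, SE 0.032, FDR 0.00146) and KCNC1 (log2FC 0.14, SE 0.043, FDR 0.0235), and HCN2 (log2FC -0.21, SE 0.044, FDR 0.00263) was lower.

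Genes that guide axons had 9 higher and 5 lower calls of 20, with a median log2FC of 0.16. The ephrin receptor EPHA3 ranged from 17.8 to 32.9 CPM, with a median of 27.1, in the temporal sums. The frontal sums ranged from 9.72 to 17.4 CPM, with a median of 13.9. They did not overlap (log2FC 0.97, SE 0.060, FDR 8.32e-09), and within the frontal lobe the insula (21 CPM) was highest and the precentral gyri (6.71 and 8.37 CPM) were lowest. Its relative EPHA7 averaged 52.1 ± 5.8 CPM in the temporal and 36.8 ± 4.14 CPM in the frontal lobe, also without overlap (log2FC 0.50, SE 0.043, FDR 3.62e-07). EPHA5 (log2FC 0.48, SE 0.046, FDR 1.32e-06) and EPHA6 (log2FC 0.23, SE 0.048, FDR 0.00231) were higher as well, and EPHA4 did not pass (log2FC 0.096, SE 0.059, FDR 0.277), so 4 of the 5 EPHA receptors of the list were higher in temporal. The secreted semaphorins diverged. SEMA3D averaged 4.06 ± 1.41 CPM in the temporal and 2.32 ± 0.709 CPM in the frontal lobe (log2FC 0.79, SE 0.098, FDR 1.69e-05) and was highest in the temporal polar gyrus (9.21 ± 3.22 CPM), without which the call was lost. SEMA3C averaged 32.9 ± 4.57 CPM in the temporal and 48.4 ± 9.14 CPM in the frontal lobe (log2FC -0.54, SE 0.045, FDR 2.36e-07), was lower in all 8 animals and had its highest means in the prefrontal gyri, up to 63 CPM in the ventromedial prefrontal cortex. SEMA3E, SEMA7A, SLIT2 and PLXND1 were higher and ROBO1, SLIT1, SLIT3 and PLXNC1 lower.

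Cadherins and protocadherins, which hold neurons of a circuit together, had 3 higher and 7 lower calls of 17, with a median log2FC of -0.078. CDH11 averaged 51.9 ± 4.13 CPM in the temporal and 72.1 ± 4.67 CPM in the frontal lobe (log2FC -0.47, SE 0.035, FDR 6.76e-08), with no overlap of the animals and with each temporal mean below each frontal mean. PCDH8 (log2FC -0.32, SE 0.036, FDR 6.37e-06) and CDH6 (log2FC -0.32, SE 0.043, FDR 4.12e-05) were lower in all 8 animals. PCDH11X averaged 17.4 ± 6.65 CPM in the temporal and 10.8 ± 3.26 CPM in the frontal lobe and was higher in all 8 animals (log2FC 0.66, SE 0.090, FDR 4.91e-05), with its highest means in the temporal polar gyrus (21.6 CPM) and the occipito-temporal gyrus (18.1 CPM) and a similar level in the insula (17.9 CPM). The summed level of the list was lower in the temporal sum of every animal, at 963 to 1138 CPM against 1044.5 to 1260.5 CPM.

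Between the lobe sums, glial and vascular markers were called lower or not at all, except for UGT8. The temporal polar gyrus alone differed from this. There CD74 (log2FC 0.33, FDR 0.0147), P2RY12 (log2FC 0.39, FDR 0.00229) and CSPG4 (log2FC 0.42, FDR 5.88e-04) were called higher than in the frontal sums. UGT8 was called lower there (log2FC -1.32, FDR 3.90e-09), and SLC1A3, AQP4, GJA1, VWF and FLT1 did not pass. Of 7 astrocyte markers tested, 0 were higher and 5 were lower, with a median log2FC of -0.17. GFAP, the intermediate filament of astrocytes, averaged 311 ± 84 CPM in the temporal and 433 ± 121 CPM in the frontal lobe (log2FC -0.47, SE 0.047, FDR 1.94e-06), and its temporal gyri were 218 to 273 CPM apart from the temporal polar gyrus (515 CPM). In that gyrus alone GFAP was called higher than in the frontal sums (log2FC 0.22, FDR 0.0438). The glutamate transporter SLC1A3 (log2FC -0.19, SE 0.040, FDR 0.00325), AQP4 (log2FC -0.18, SE 0.043, FDR 0.00814), GJA1 (log2FC -0.17, SE 0.041, FDR 0.00672) and ALDH1L1 (log2FC -0.15, SE 0.040, FDR 0.0147) were the other lower ones, and SLC1A2 and AGT did not pass. Summed over the list, temporal levels ran from 2783 to 3468 CPM and frontal levels from 3089.8 to 3987 CPM, with 1 of 8 animals higher in temporal. Mural and meningeal markers gave 0 higher and 5 lower calls of 8, led by the collagen gene COL1A2 (log2FC -0.69, SE 0.15, FDR 0.0041) and PDGFRB of pericytes (log2FC -0.37, SE 0.041, FDR 5.83e-06). For the 4 endothelial markers tested the counts were 0 and 2 (VWF, log2FC -0.31, SE 0.062, FDR 0.00157, and FLT1, log2FC -0.12, SE 0.034, FDR 0.0217), and for the 3 microglial markers 0 and 2 (CD74, log2FC -0.20, SE 0.049, FDR 0.00948, and P2RY12, log2FC -0.14, SE 0.044, FDR 0.0375). The call of P2RY12 was lost without any of 6 of the 8 animals. FLT1 passed against the precentral part (log2FC -0.53, FDR 3.63e-06). It did not pass against the prefrontal part (log2FC -0.030, FDR 0.641) or the insula (log2FC 0.068, FDR 0.494). Of 6 oligodendrocyte markers UGT8 was higher and 0 were lower, and MBP and MOG did not pass (log2FC 0.13, SE 0.081, FDR 0.29 and log2FC 0.15, SE 0.066, FDR 0.132). The sum of those 6 ran from 453 CPM in the temporal polar gyrus to 3593 CPM in the superior precentral gyrus. Of 3 oligodendrocyte precursor markers 1, CSPG4, was lower (log2FC -0.16, SE 0.052, FDR 0.034). How far these cell type markers account for the differences of other genes was not tested.

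The remaining lists were short and gave at most 3 calls each. Of 6 perineuronal net genes BCAN was lower (log2FC -0.16, SE 0.035, FDR 0.00414). Immediate early genes, which follow recent activity and handling, gave 1 higher (ARC, log2FC 0.20, SE 0.046, FDR 0.00429) and 2 lower calls (NPAS4, log2FC -0.59, SE 0.083, FDR 7.26e-05, and NR4A3, log2FC -0.23, SE 0.057, FDR 0.00807) of 9. Of 3 heat shock genes HSPH1 was slightly higher (log2FC 0.097, SE 0.031, FDR 0.0373), while the median log2FC of the list was -0.031. Of 3 choroid plexus markers CLIC6 was lower, while KL and FOLR1 did not pass (log2FC 0.091, SE 0.047, FDR 0.194 and log2FC -0.015, SE 0.23, FDR 0.981). Of 5 striatal markers RGS9 (log2FC -0.51, SE 0.081, FDR 2.25e-04) and DRD1 were lower. The 2 blood genes with a symbol, HBA1 and ALAS2, did not pass the filter on low counts, and none of the 13 mitochondrially encoded genes was matched to a symbol.

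**Figure D5:**
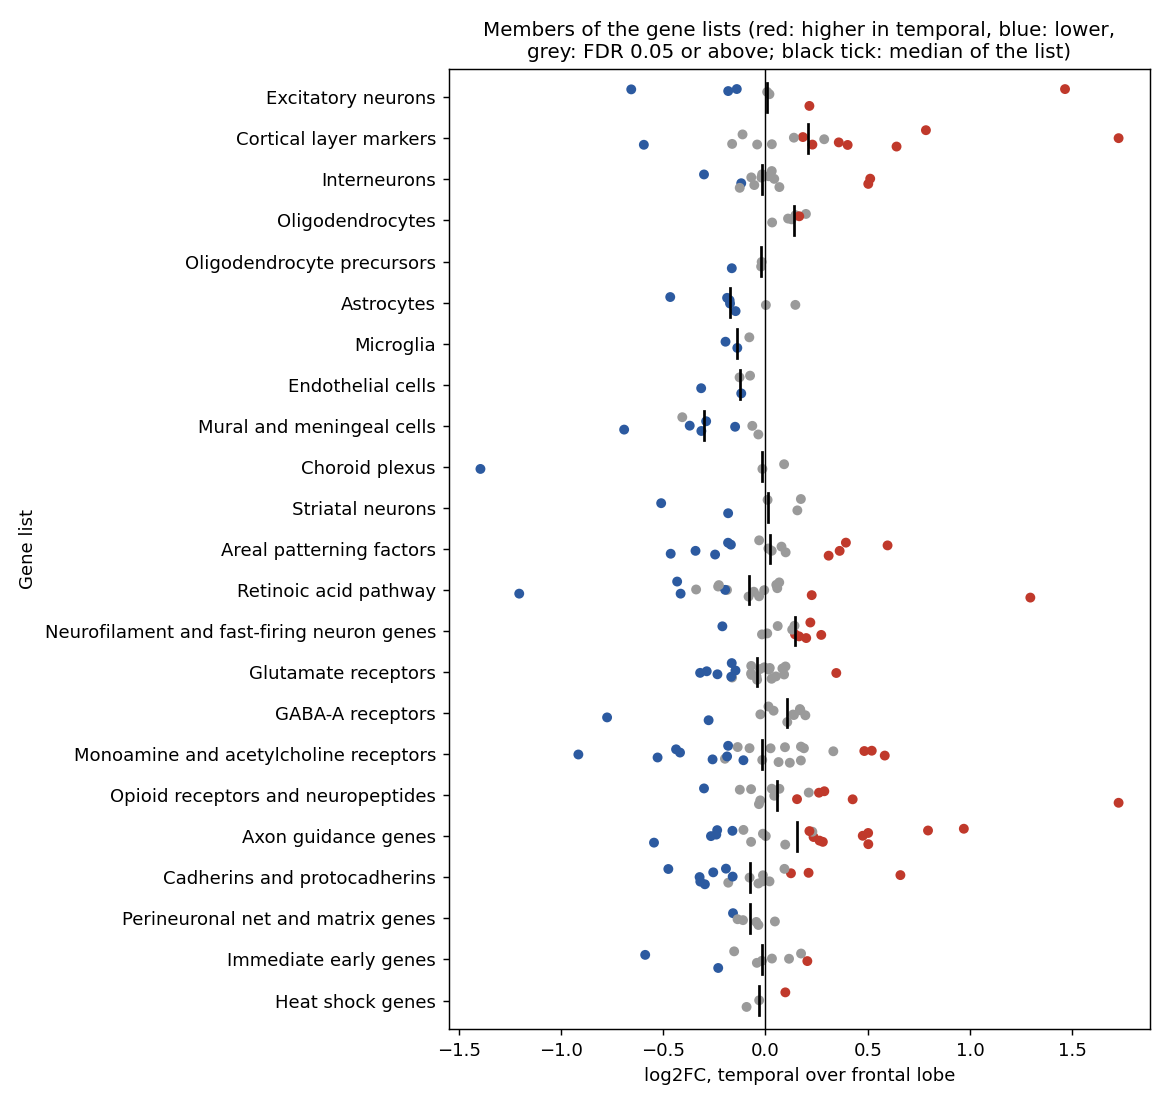
Log2FC of temporal over frontal lobe (x axis) for the tested members of 23 gene lists (y axis), where each point is a gene, red if called higher, blue if called lower and grey if its FDR was 0.05 or above, and black ticks are list medians. Layer markers and axon guidance genes had medians of 0.21 and 0.16, astrocyte markers and mural and meningeal markers -0.17 and -0.30, and the outermost members were CARTPT (1.73), SLC17A6 (1.46), CLIC6 (-1.39) and CBLN2 (-1.20).

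The other cortical lobes gave a frame for these differences, as mean levels without a test. Of the 1583 genes higher in temporal than in frontal, the mean over the 9 parietal sub-regions lay between the lobes in 571, above the temporal level in 750 and below the frontal level in 262. The mean over the 3 occipital sub-regions lay above the temporal level in 1038 of them. Of the 1847 genes lower in temporal, 1295 were lower still in the occipital and 883 in the parietal mean. No such share was computed for all genes tested. In most of the called genes the order of the means ran from frontal over temporal to occipital cortex. MET, at 74.9 CPM in the parietal and 110.6 CPM in the occipital mean, did not follow it and was highest in the temporal lobe. SLC17A6 did, with 109 and 185 CPM, and MCHR2 did in the other direction, with 2.42 and 1.33 CPM. CARTPT was 4.19 CPM in the parietal and 1.9 CPM in the occipital mean, both below its frontal mean. The entorhinal and perirhinal cortex, which adjoins the temporal neocortex, lay below the frontal level in 916 of the 1583 genes. MET there had 21.6 CPM, near its frontal level, whereas CARTPT had 28.7 and SLC17A6 122 CPM, above their temporal means.

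Whether the lobe difference itself depended on age or sex was tested with interaction terms in 1 fit of the 16 sums. For age, with 4 young animals of up to 5 years and 4 mid-aged animals, 2 of 17243 genes passed (0.0116%), GHV and PRL, and 596 had an unadjusted p under 0.05. DESeq2 called 0, with 323 at an unadjusted p under 0.05. Both genes had far higher levels in the pituitary samples, with means of 39494 and 102481 CPM. GHV was listed at 0 CPM in the temporal sums of 5 animals, and in the other 3 (Rhesus 4, 7 and 8) it was between 2.26 and 3.73 CPM. Its frontal sums reached 228 CPM in Rhesus 11 and were at most 4.07 CPM in the other animals. PRL was at most 12.1 CPM in temporal sums and reached 77.8 CPM in the frontal sum of Rhesus 11. These fitted terms rest on groups at or near 0 counts and have no interpretable size. They were not called with DESeq2, and the near-identical copies of growth hormone genes leave the count of GHV uncertain. For sex, with 4 animals each, 0 of 17243 genes (0%) passed with edgeR and 0 with DESeq2, and 889 and 573 had an unadjusted p under 0.05. No age or sex term passed for MET (log2FC -0.26 and -0.49) or CARTPT (log2FC 0.072 and -0.42).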

How the data were processed

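Per the labels and the paper's methods, the authors depleted ribosomal RNA, made libraries with a directional kit, used Trim Galore 0.4.4 only on samples whose reads were poor, mapped all reads to Mmul 8.0.1 with HISAT2 2.0.5 and deposited whole-number counts per gene of Ensembl 91 from HTSeq 0.6.1, without normalization. Which strand and overlap settings HTSeq ran with is not given in the sources used here, which leaves genes that overlap, lie antisense or have close copies uncertain. A table of gene names paired 17572 of the 30807 identifiers with a symbol. Samples were grouped by the sub-region, animal, sex and age of their labels, and the counts of a lobe were summed within each animal.

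edgeR 4.0.16 in R 4.3.3 (limma 3.58.1) was run with TMM, filterByExpr, the quasi-likelihood F test, the animal as a block and Benjamini-Hochberg adjustment over all genes tested. The SE is the absolute log2FC over the square root of F. The replicate block joins samples of the same animal, and the deviations of its 2 lobe sums from the lobe means correlated at 0.758 to 0.918 in the 8 animals. Per-animal ratios had a pseudocount of 0.1 CPM. On simulated data with 200 genes changed 2-fold, 195 were recovered for the lobes (5 other calls among 17243 genes), 168 for the age and 172 for the sex interaction (14 and 8 other calls). All genes were simulated with the same dispersion, and the lobe difference did not vary between animals beyond it. Folds below 2 were not simulated, so these counts do not describe the many smaller differences called here. Figures used Python 3.11.15 with matplotlib 3.10.9, and DESeq2 1.42.0 was an alternative.

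Named genes were, per direction, the 12 with a symbol, at least 1 CPM in the higher lobe, FDR under 0.05, the same sign in all 8 animals and the largest absolute log2FC, the 6 such genes whose sub-region means separated the lobes, up to 4 called members of each of 25 gene lists and the genes of the interaction tests. Further list members were named after their values were seen, to account for a list. The members and lists were chosen with earlier results of these data known. A few list members are not reported here and were left out of the list counts. The 8 midbrain samples, the ATAC-seq samples and the assembled transcripts were not used here, and no sequence or coordinate is given. At the depths given above, genes with few counts are imprecise. The p-values of the lobe fits measure how the difference within an animal varied over the 8 animals. Those of the tests among sub-regions measure the spread of single samples left after the animal block.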

Additional observations from a re-analysis of the deposited data

Results flagged for a closer look

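Of 93 named genes, 2 had an animal whose log2 ratio of temporal over frontal CPM stood further from the other animals than a Dixon test at the 95% level allows, both in Rhesus 11, and chance flags about 1 in 20 groups. For HSPH1, a heat shock gene, the ratio was -0.0666 in Rhesus 11 against a median of 0.102 over the animals, and this animal alone had less in its temporal sum. For GHV the ratio was -11.16 against a median of -0.103. The medial orbital gyrus sample of this animal held 1890 CPM of GHV and 646 CPM of PRL, both far higher in the pituitary samples. Without that medial orbital gyrus sample the count of genes called between the lobes was 3504 in place of 3430.

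The lobe difference of 2 genes differed between young and mid-aged animals by the interaction term. It was -14.89 on the log2 scale for GHV (FDR 8.41e-08) and -10.15 for PRL (FDR 0.000201), in edgeR's quasi-likelihood test. GHV was at 0 CPM in the temporal sums of 5 of 8 animals, so these sizes depend on the handling of zero counts and bound nothing. Without the medial orbital gyrus sample of Rhesus 11 they were -9.95 (FDR 0.000143) and -8.38 (FDR 0.00578). DESeq2 gave an adjusted p of 0.9997 for both. The fit without the medial orbital gyrus sample still held the lower levels of GHV in Rhesus 11 and of PRL in Rhesus 3 that differed by lobe. Whether pituitary transcripts reached cortical samples during dissection or library preparation was not tested.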

How the results depend on the processing

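The 23 alternatives of the lobe comparison included DESeq2, its size factors in edgeR, no low-count filter, the study's detection rule, frontal sums thinned to the temporal totals and sub-regions weighted alike, and none of these 6 moved the count of 3430 calls by more than 1.5 times (DESeq2 gave 3425) or turned a named gene. Leaving out each animal in turn gave 2696 to 4139 calls, 1124 to 2094 higher and 1483 to 2045 lower in temporal. Without the replicate block, as an unpaired fit, 273 genes were called (121 higher, 152 lower), and the counts were 314, 1563 and 626 against the prefrontal, precentral and insular parts, 2368, 281, 94 and 1847 for the occipito-temporal, inferior temporal, superior temporal and temporal polar gyri, and 3616 and 3198 for variation among temporal and frontal sub-regions. An absolute log2FC above 1 left 122 genes (43 higher, 79 lower). Temporal sums without the occipito-temporal gyrus gave 1978 calls (854 higher, 1124 lower) and those without the temporal polar gyrus 5649 (2731 higher, 2918 lower). Without the occipito-temporal gyrus the log2FC turned to -0.017 for TBR1 (FDR 0.884), -0.10 for UGT8 (FDR 0.458) and -0.076 for SCN1A (FDR 0.478), and the calls of another 21 of the 93 named genes were lost. The cause was not tested. For the inferior temporal gyrus DESeq2 called 1388 genes in place of 893. The age interaction gave 0 genes with DESeq2, 66 without the low-count filter and 0 to 5 with an animal left out, 5 without Rhesus 11 and 0 without Rhesus 4, 7 or 8. The sex interaction gave 44 without the filter and 0 to 1 with an animal left out, the 1 without Rhesus 11. Leaving out doubtful samples was chosen after seeing the data. Without the medial orbital gyrus sample of Rhesus 11 there were 3504 calls, and without the samples of lowest correlation 3116.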

Other observations

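Several of the named genes had far higher levels in samples outside the 2 lobes, given here as means over 8 animals with no comparison made. LHX9 was 46.7 ± 10.0 CPM (SD) in the thalamus and 7.27 ± 4.0 CPM in the amygdala. SLC17A6 was 827 ± 226 CPM in the thalamus. LPAR3 was 26.7 ± 6.16 CPM in the hippocampus and 15.6 ± 6.01 CPM in the corpus callosum. RPE65 was 30.2 ± 6.41 CPM in the thalamus, and DCBLD1 was 66.3 ± 12.5 CPM in the entorhinal and perirhinal cortex. MET was 64.6 ± 34.7 CPM in the pituitary and 30.1 ± 12.7 CPM in the hippocampus, above its frontal level, and 9.72 ± 3.64 CPM in the corpus callosum, 2.04 ± 0.83 CPM in the amygdala, 1.5 ± 0.645 CPM in the striatum and 1.28 ± 1.08 CPM in the thalamus, below it. DMKN, AFM and CLEC10A were 0.118, 0 and 0.0388 CPM in the thalamus.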
